A study of Mus musculus with 15 samples.

Results

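The serum amyloid A genes Saa1, Saa2 and Saa3 and 5 genes of the enzymes that make hydrogen peroxide, superoxide or nitric oxide and of their partner proteins, Duox2, Duoxa2, Nos2, Nox1 and Noxo1, were examined in the cecum of microbiome-depleted mice. These 8 genes were taken by symbol from the 45808 rows of the deposited expression table. All 15 mice were wild-type male C57BL/6 animals, labelled as 20 weeks old. The 7 AIMD (antibiotic-induced microbiome depletion) mice received ampicillin, vancomycin, neomycin, metronidazole and amphotericin B by gavage 2 times a day for 30 days, and the 8 vehicle-treated mice received water on the same schedule. The emptied cecum was frozen whole and its poly-A RNA was sequenced, so epithelium, immune cells, stroma and muscle were measured together, and fewer cells of a type cannot be told apart from less RNA per cell. Expression is given as FPKM, which scales a read count for transcript length and sequencing depth, and means are given ± SD over the 7 AIMD and 8 vehicle-treated mice. SE is the standard error of a log2 fold change.

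Serum amyloid A (SAA) proteins are small lipid- and retinol-binding proteins that the liver secretes in the acute-phase response. Gut epithelium also makes them, and there they are known to rise with IL-22 and with bacteria that attach to the epithelium. Saa3 is in addition a product of macrophages and adipocytes. DUOX2 releases hydrogen peroxide at the apical surface of gut epithelium and needs its maturation factor DUOXA2 to reach that surface. NOX1 makes superoxide in colonic epithelium together with its organizer NOXO1, and NOS2 is the inducible nitric oxide synthase of epithelium and macrophages. The comparison asks whether this set of host defence genes differed between AIMD and vehicle-treated mice.

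Reads on genes numbered 8679685 to 18108594 per AIMD mouse (mean 12408836) and 4372429 to 14405959 per vehicle-treated mouse (mean 8481745), so the AIMD libraries were deeper (two-sided exact permutation test, p = 0.0345). Against marker genes of the labelled tissue, 6 colonocyte genes summed to 21685 to 32476 FPKM in every mouse. Car1 alone had 16675 to 29683 FPKM, so this sum mostly follows that gene. The hepatocyte markers Alb and Ahsg never exceeded 0.261 FPKM, whereas Cyp2e1 and Ttr, which are also on that list, reached 4.50 and 37.9 FPKM. In 2 mice the values stood apart. AIMD replicate 4 had the highest Saa1, Saa2, Saa3, Duox2, Duoxa2 and Nos2 of its group, and 10 neutrophil markers summed to 31.4 FPKM in it against 1.03 to 4.07 in the other AIMD mice. Ly6g alone gave 24.7 of these 31.4 FPKM. Vehicle replicate 8 had the fewest reads, 5 smooth muscle markers summing to 2898 FPKM against 496 to 1328 in the other vehicle-treated mice, and the lowest Nox1 and Noxo1 of all mice. Results that rest on these mice are given with and without them.

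Of the 8 genes, 7 reached the expression filter, set at 0.5 FPKM or more in 7 or more mice. Nos2 did not. With limma on log2(FPKM + 0.5), Saa1, Saa3 and Noxo1 were higher in AIMD mice at an adjusted p under 0.05, which is 3 of the 7, and Saa2, Duox2, Duoxa2 and Nox1 did not pass. Of all 11971 tested genes, 36.0% passed, 19.4% higher and 16.6% lower in AIMD mice. None of the 7 genes was called lower by limma, 0 at an unadjusted p under 0.05 and 0 with limma voom on reads recovered from the FPKM. The 3 calls were kept when AIMD replicate 4 and vehicle replicate 8 were both left out. The median log2 fold change of the 7 genes was 0.56, and it was 0.01 over all tested genes.

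**Figure D1:**
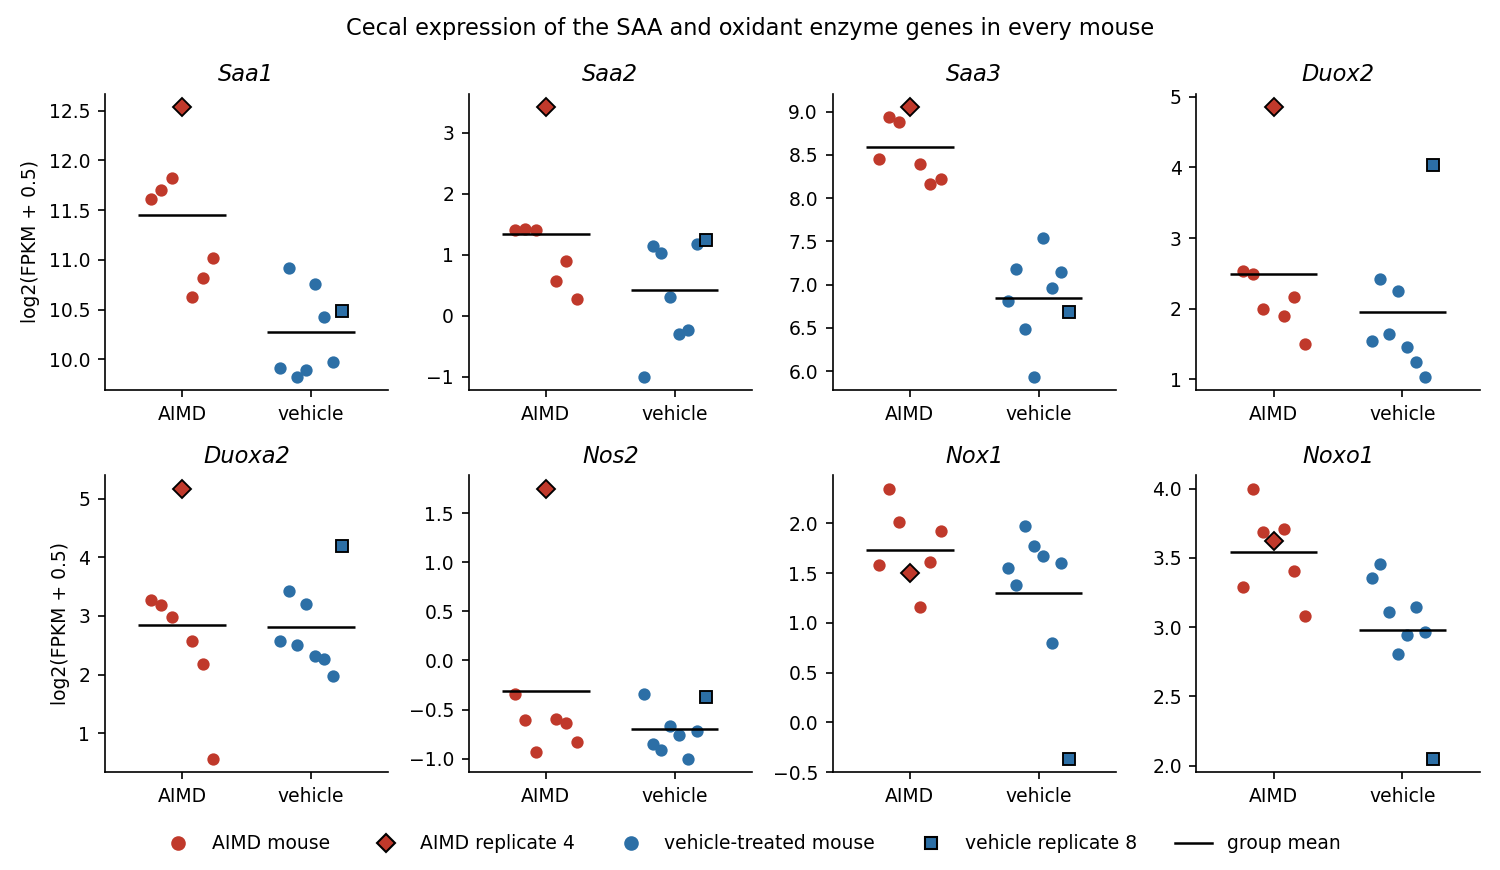
Each point is 1 mouse, the vertical axis is log2(FPKM + 0.5) with a scale of its own in each panel, and the line is the mean of 7 AIMD or 8 vehicle-treated mice. The groups do not overlap for Saa3, and AIMD replicate 4 (diamond) and vehicle replicate 8 (square) carry the highest Duox2 and Duoxa2 of their groups.

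Saa3, Saa1 and Saa2 lie within 1 cluster on chromosome 7 of GRCm38 (GENCODE M21). Saa3 occupies chr7:46711998-46715700 and Saa1 chr7:46740497-46742980, both on the minus strand, and Saa2 occupies chr7:46751790-46754313 on the plus strand. The starts of Saa1 and Saa2 are 8810 bases apart and point away from each other. Because these genes share a cluster but differed widely in level, their promoters are shown from position -250 to position -51 relative to the RefSeq start (GRCm38.p6). Capitals mark matches, on either strand, to the C/EBP motif TTGCNNAA and, in Saa3, also to the IRF motif GAAANNGAA, which comes first.
Saa1 (chr7:46743031-46743230, minus strand): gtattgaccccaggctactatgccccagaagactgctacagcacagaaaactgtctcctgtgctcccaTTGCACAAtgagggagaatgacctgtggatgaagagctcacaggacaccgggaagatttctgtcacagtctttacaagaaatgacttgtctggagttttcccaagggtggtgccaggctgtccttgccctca
Saa2 (chr7:46751583-46751782, plus strand): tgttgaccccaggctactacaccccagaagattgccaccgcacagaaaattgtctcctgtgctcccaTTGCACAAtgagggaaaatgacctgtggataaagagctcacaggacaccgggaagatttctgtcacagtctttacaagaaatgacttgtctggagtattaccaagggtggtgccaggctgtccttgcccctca
Saa3 (chr7:46715727-46715926, minus strand): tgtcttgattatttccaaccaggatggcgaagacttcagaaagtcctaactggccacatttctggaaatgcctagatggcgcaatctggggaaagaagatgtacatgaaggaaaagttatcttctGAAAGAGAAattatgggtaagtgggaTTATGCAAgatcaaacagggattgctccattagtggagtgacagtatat

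Over the full windows of 300 bases, the promoters of Saa1 and Saa2 were 95.3% identical, at 287 of 301 aligned columns, whereas Saa3 shared 51.3% with Saa1 and 51.1% with Saa2. The C/EBP letters occurred 1 time in each of the 3 SAA windows and in 10.8% of 27025 RefSeq promoter windows of that length. The IRF letters occurred in Saa3 and in 8.57% of the windows, and the NF-kB consensus occurred in Nox1 and in 8.18%. The STAT motif TTCNNNGAA, held by 8.47% of the windows, was in none of the 7 promoters found in the table. A match describes letters in a window and is not a measured binding site, and no factor was measured here.

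Saa3 was higher in AIMD mice than in vehicle-treated mice, with no overlap between the groups. Its FPKM ranged from 286 to 531 in AIMD mice with a median of 350.5, and from 60.6 to 186 in vehicle-treated mice with a median of 118. The lowest AIMD mouse (replicate 6) thus lay above the highest vehicle-treated mouse (replicate 5). The mean was 395 ± 100 against 119.9 ± 38.3, 3.29 times as high. This was a log2 fold change of 1.74 (SE 0.21, 95% interval 1.30 to 2.19, limma adjusted p = 1.69e-05). Of all tested genes, 5.27% were higher in AIMD mice without overlap of the groups. Without AIMD replicate 4 and vehicle replicate 8 the log2 fold change was 1.64 (limma adjusted p = 8.05e-05).

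Cell types known to make Saa3 were followed by their markers. The summed FPKM of 10 macrophage markers was 86.9 to 254 per AIMD mouse and 66.0 to 107 per vehicle-treated mouse, and 4 of the 9 tested markers were higher by limma (5 without both mice that stood apart), beside 19.4% of all tested genes. Lyz2, the macrophage lysozyme, had 113 ± 57.2 FPKM against 43.9 ± 10.4, a log2 fold change of 1.24 (limma adjusted p = 0.00199). Csf1r, Cd68 and C1qa were the other 3 higher markers. Lyz2 was the largest part of the sum in both groups, so the sum mostly follows that gene. The other tested markers did not pass with all mice. Mrc1, Cd14 and C1qc had log2 fold changes of -0.69, -0.02 and -0.14 (limma adjusted p = 0.0516, 0.912 and 0.683). Adgre1 and C1qb had 0.45 and 0.41 (limma adjusted p = 0.102 and 0.0819). The summed FPKM of 5 adipocyte markers was 0 to 8.95 with AIMD and 0.272 to 13.6 with vehicle, so the groups overlapped, and all 5 were listed at 0 in AIMD replicate 4. The part of macrophages and adipocytes in the Saa3 result was not tested.

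Saa1 was among the most abundant transcripts of the cecum and was also higher in AIMD mice. AIMD mice had between 1584 and 5939.9 FPKM with a median of 3138, and vehicle-treated mice had between 905 and 1935 with a median of 1191. The groups overlapped, because AIMD replicates 5 and 6 (1584 and 1802 FPKM) lay within the vehicle range, while the other 5 AIMD mice lay above every vehicle-treated mouse. The mean was 3068 ± 1495 FPKM against 1287 ± 394, 2.38 times as high. The log2 fold change was 1.17 (SE 0.27, 95% interval 0.61 to 1.74, limma adjusted p = 0.00288), and it was 0.99 without AIMD replicate 4 (limma adjusted p = 0.00476). Ranked by mean FPKM among tested genes, Saa1 was at place 13 in AIMD and place 41 in vehicle-treated mice. It took 0.109 to 0.345% of the reads on genes per AIMD mouse and 0.0512 to 0.110% per vehicle-treated mouse.

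Saa2, which shares most of its promoter sequence with Saa1, was measured at a far lower level, with Saa1 at 1522 times the FPKM of Saa2 in the median AIMD mouse and 1139.7 times in the median of 7 vehicle-treated mice. Its FPKM ran from 0.712 to 10.2 in AIMD mice (median 2.16) and from 0 to 1.87 in vehicle-treated mice (median 1.14). AIMD replicate 4 held the highest value, and 3 further AIMD mice, at 2.16 to 2.19, lay just above the highest vehicle-treated mouse. The log2 fold change of 0.92 (SE 0.42, 95% interval 0.03 to 1.81) did not pass (limma adjusted p = 0.0985), and it was 0.57 without AIMD replicate 4. These values rested on 5 to 52 reads per AIMD mouse and 0 to 14 per vehicle-treated mouse, against 3789 to 41467 reads for Saa1. Of the 50-base windows of the spliced Saa2 transcript, 13.3% also occur in transcripts of other genes, and 14.8% of those of Saa1 do. A small share of Saa1 reads counted on Saa2 would change the Saa2 value, and the handling of reads that map to several places is not given in the sources used here.

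Within AIMD mice Saa1 was correlated with both Saa2 and Saa3. Pearson's r of log2 values between Saa1 and Saa2 was 0.90 over 7 AIMD mice (exact permutation test, p = 0.00417, adjusted over 8 tests 0.0148; Spearman's rho 0.86, adjusted p = 0.0447). It was 0.80 without AIMD replicates 4 and 5, the mice farthest from the median Saa1. In vehicle-treated mice the r of this pair was 0.10 (exact permutation test, adjusted p = 0.821; rho 0.17). Between Saa1 and Saa3 it was 0.87 in AIMD mice (exact permutation test, p = 0.0179, adjusted p = 0.0357; rho 0.86) and 0.90 without replicates 4 and 5. For vehicle-treated mice this r was 0.66 (exact permutation test, adjusted p = 0.117; rho 0.79, adjusted p = 0.0447) and fell to 0.35 without replicates 2 and 5, so that relation rests on those mice. Whether the relations differed between the groups was not tested. Saa2 and Saa3 were not tested as a pair, and their r centred within the groups was 0.27 over 15 mice. AIMD replicates 1 to 3 had 3138 to 3610.3 FPKM of Saa1, and replicates 5 to 7 had 1584 to 2074. These sets of mice also differ in their clock genes, as described below. The part of that split in the correlations was not tested, nor was the share of Saa1 reads in the Saa2 values.

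The fold change of Saa3 exceeded that of Saa1, but the difference between them did not pass after adjustment. The FPKM of Saa1 was 4.70 to 11.2 times that of Saa3 in AIMD mice (median 6.97) and 7.12 to 15.6 times in vehicle-treated mice (median 10.6). The log2 difference of Saa1 minus Saa3 was 2.86 ± 0.40 with AIMD and 3.43 ± 0.39 with vehicle. The groups thus differed by -0.57 (two-sided exact permutation test, p = 0.0162, adjusted over 4 pairs 0.0646). The adjusted p fell under 0.05 without AIMD replicate 3 (0.0466), without AIMD replicate 4 (0.0200) or without vehicle replicate 7 (0.0256), and also without both mice that stood apart (0.0152, exact permutation tests). For Saa1 minus Saa2 the groups differed by 0.25 (exact permutation test, adjusted p = 0.616).

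**Figure D2:**
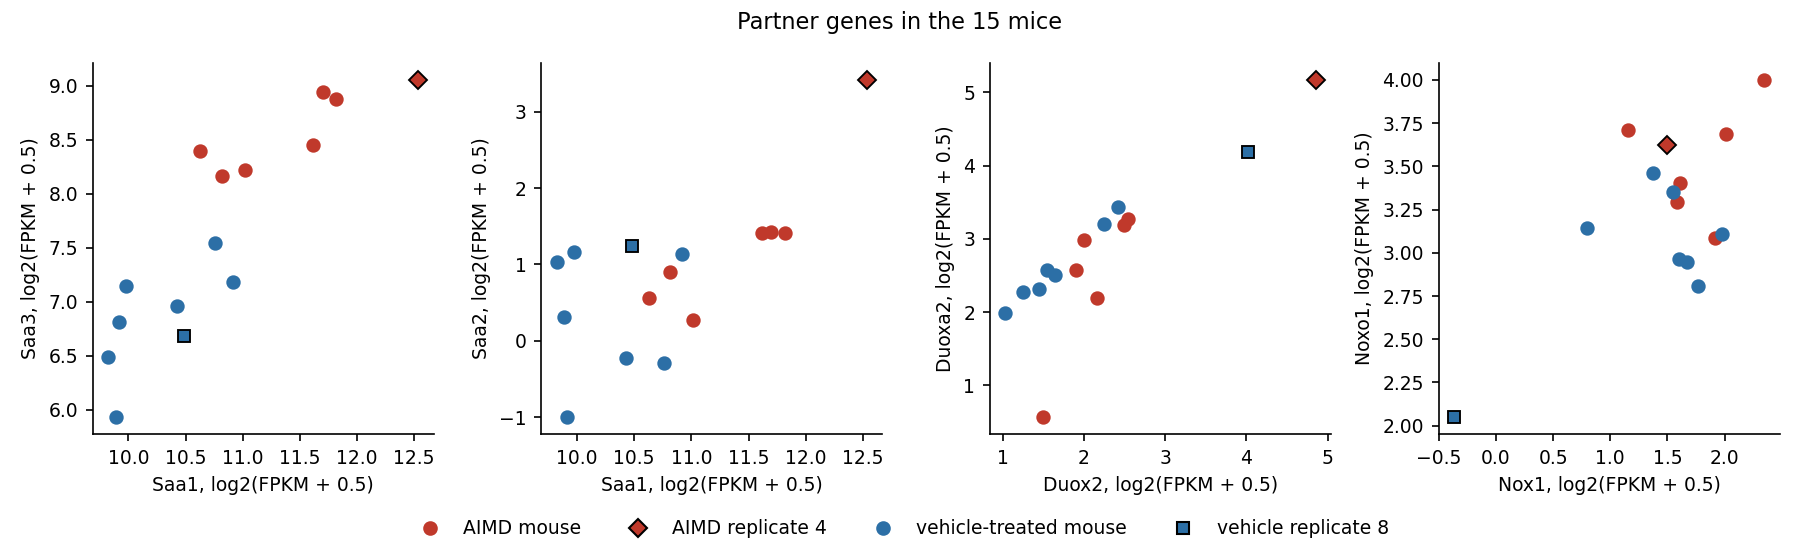
Each point is 1 of the 15 mice, placed by log2(FPKM + 0.5) of 2 partner genes on its axes. Duox2 and Duoxa2 rose together in both groups, with AIMD replicate 7 low in Duoxa2, whereas Nox1 and Noxo1 formed a cloud with vehicle replicate 8 far below it.

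Duox2 and Duoxa2 are divergent neighbours on chromosome 2. Duox2, the oxidase, occupies chr2:122279247-122298449 on the minus strand and Duoxa2, its maturation factor, chr2:122298900-122302885 on the plus strand, with 451 bases between their starts. The stretch from position -250 to position -51 before the RefSeq start of Duoxa2 lies between the starts of both genes and is shown because the pair moved together. It held none of the 4 motifs searched (C/EBP, IRF, STAT and NF-kB, on either strand), so it has no capitals.
Duoxa2 (chr2:122298650-122298849, plus strand, GRCm38.p6): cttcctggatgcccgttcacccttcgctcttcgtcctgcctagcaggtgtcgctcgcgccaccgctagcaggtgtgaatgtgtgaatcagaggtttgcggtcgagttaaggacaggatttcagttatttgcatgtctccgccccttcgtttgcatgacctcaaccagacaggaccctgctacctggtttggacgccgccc

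Neither gene of the dual oxidase pair passed the test between AIMD and vehicle-treated mice. Duox2 had 2.32 to 28.4 FPKM in AIMD mice (median 3.97) and 1.55 to 15.8 in vehicle-treated mice (median 2.53). In each group 1 mouse lay far above the rest, AIMD replicate 4 at 28.4 and vehicle replicate 8 at 15.8, and all 13 others were between 1.55 and 5.31. The log2 fold change was 0.54 (SE 0.46, 95% interval -0.44 to 1.51, limma adjusted p = 0.384). It was 0.14 without AIMD replicate 4, 0.83 without vehicle replicate 8 and 0.44 without both (limma adjusted p = 0.784, 0.106 and 0.137).

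Duoxa2 had 0.981 to 35.5 FPKM in AIMD mice (median 7.38) and 3.45 to 17.7 in vehicle-treated mice (median 5.32). The same 2 mice were highest, and AIMD replicate 7 was the lowest of all 15, at 18 reads. The log2 fold change was 0.04 (SE 0.49, 95% interval -0.99 to 1.06, limma adjusted p = 0.959). It changed sign with the mouse left out, from -0.35 without AIMD replicate 4 to 0.42 without AIMD replicate 7, and passed in neither case (limma adjusted p = 0.527 and 0.453). Of the exon bases of Duoxa2, 42.8% are shared with Duoxa1 on the opposite strand, and Duoxa1 itself had 0 to 2 reads.

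The enzyme and its maturation factor followed each other from mouse to mouse. Pearson's r of log2 values was 0.98 over 8 vehicle-treated mice (exact permutation test, p = 4.96e-05, adjusted over 8 tests 0.000397; rho 0.98, adjusted p = 0.00317) and stayed 0.98 without replicates 2 and 8. In AIMD mice it was 0.89 (exact permutation test, p = 0.00556, adjusted p = 0.0148; rho 0.89, adjusted p = 0.0447), and 0.63 without replicates 4 and 7. The FPKM of Duox2 was 0.435 to 0.893 times that of Duoxa2 in vehicle-treated mice and 0.475 to 2.36 times in AIMD mice, with the highest ratio in AIMD replicate 7. The log2 difference of Duox2 minus Duoxa2 was 0.50 higher in AIMD mice (two-sided exact permutation test, p = 0.0507, adjusted over 4 pairs 0.101). It passed without vehicle replicate 8 at 0.60 (exact permutation test, adjusted p = 0.0117) and without AIMD replicate 3 at 0.60 (adjusted p = 0.0466), and it was 0.29 without AIMD replicate 7.

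Nos2 lies at chr11:78920787-78960254 on the plus strand and was barely expressed. In AIMD mice its FPKM was 0.0251 to 2.86 (median 0.159), and in vehicle-treated mice it was 0 to 0.292 (median 0.101). AIMD replicate 4, with 100 reads, lay far above the other 14 mice, whose values were at most 0.292 FPKM and overlapped between the groups. Vehicle replicate 6 had 0 reads, which allows up to 0.0770 FPKM (3 reads), a limit that covers counting error only. The groups differed by 0.39 on the log2 scale (two-sided exact permutation test, p = 0.287), and by 0.04 without AIMD replicate 4 (exact permutation test, p = 0.715). Between the group means the ratio was 4.32, and between the medians it was 1.58.

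Noxo1, the organizer of the NOX1 complex, was higher in AIMD mice. It lies at chr17:24696234-24700529 on the plus strand. Its FPKM was 7.98 to 15.5 in AIMD mice (median 11.8) and 3.64 to 10.5 in vehicle-treated mice (median 7.70). The groups overlapped, with 4 of the 7 AIMD mice above every vehicle-treated mouse and vehicle replicate 8 lowest of all. The mean was 11.4 ± 2.50 against 7.66 ± 2.09, 1.49 times as high, a log2 fold change of 0.56 (SE 0.18, 95% interval 0.18 to 0.95, limma adjusted p = 0.0248). The call was lost without AIMD replicate 2 (log2 fold change 0.49, limma adjusted p = 0.0550) or AIMD replicate 5 (0.54, limma adjusted p = 0.0509), and without vehicle replicate 8 the value was 0.43 (limma adjusted p = 0.0258). On the opposite strand Tbl3 covers 70.4% of the exon bases of Noxo1. The libraries were stranded, but the strand setting of the counting is not given in the sources used here. Tbl3, named for its position, had 0.549 to 1.83 FPKM per AIMD mouse and 0.545 to 2.39 per vehicle-treated mouse, with a log2 fold change of 0.10 (limma adjusted p = 0.753).

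Nox1, the catalytic subunit, lies at chrX:134086421-134221956 on the minus strand and did not pass. Its FPKM was 1.73 to 4.59 in AIMD mice (median 2.55) and 0.276 to 3.43 in vehicle-treated mice (median 2.48), and the medians were almost equal. Vehicle replicate 8 was lowest with 4 reads, and the next lowest mouse, vehicle replicate 6, had 1.24 FPKM. The log2 fold change of 0.43 (SE 0.28, 95% interval -0.16 to 1.03, limma adjusted p = 0.245) fell to 0.20 without vehicle replicate 8 (limma adjusted p = 0.431). Cstf2 on the opposite strand covers 12.1% of the exon bases of Nox1 and its own level rose in AIMD mice, by a log2 change of 0.75 ± 0.13 (SE, limma adjusted p = 0.000336). The share of Cstf2 reads in the Nox1 values was not tested.

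No relation between Nox1 and Noxo1 passed the test. Their r was 0.25 in AIMD mice (exact permutation test, adjusted p = 0.690; rho 0.14). In vehicle-treated mice it was 0.69 (exact permutation test, adjusted p = 0.130; rho -0.12) and turned to -0.60 without replicates 6 and 8. Nox1 minus Noxo1 differed by -0.13 between the groups on the log2 scale (exact permutation test, adjusted p = 0.616). Whether this pair was less correlated than the dual oxidase pair was not tested.

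**Figure D3:**
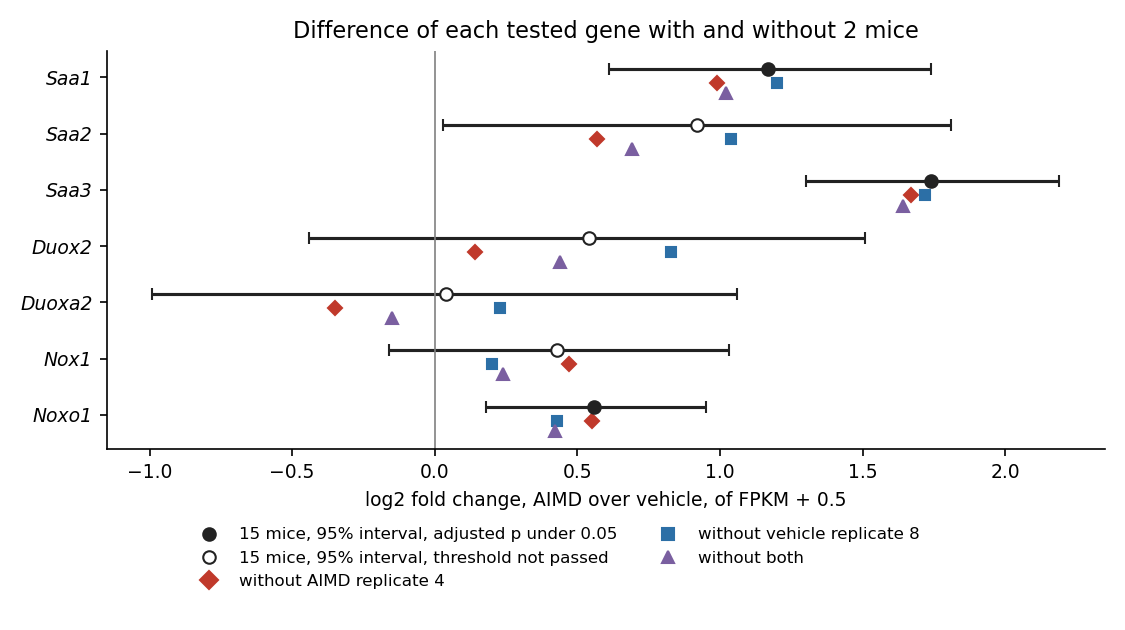
The horizontal axis is the log2 fold change of FPKM + 0.5, AIMD over vehicle, for the 7 genes that passed the filter. Circles with 95% intervals are from all 15 mice (filled where the limma adjusted p was under 0.05), and the smaller symbols show Duox2 moving from 0.14 to 0.83 and Duoxa2 from -0.35 to 0.23 as AIMD replicate 4 or vehicle replicate 8 was left out.

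By mean FPKM, which is scaled by gene length, the order of levels was the same in both groups. Saa1 stood first, followed by Saa3, Noxo1, Duoxa2, Duox2, Nox1, Saa2 and Nos2. The ranges of Saa1 and Saa3 did not overlap in either group, nor did those of Saa3 and Noxo1. All later neighbours in the order overlapped, and Duox2 exceeded Nox1 in only 5 of 7 AIMD mice and 4 of 8 vehicle-treated mice.

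The remaining subunits of the NOX1 complex and the relatives of these genes were read from a list of 10. Only 3 reached the filter, 1 of them higher and 1 lower by limma, beside 19.4% higher and 16.6% lower of all tested genes. Cyba, which encodes the p22phox subunit that NOX1 needs, had 32.0 ± 11.3 FPKM with AIMD and 87.1 ± 33.7 with vehicle. Its log2 change was -1.40 ± 0.24 (SE, limma adjusted p = 0.000390), and 6 of 7 AIMD mice lay below every vehicle-treated mouse. Rac1, the GTPase of the complex, had 122 ± 13.2 FPKM against 85.6 ± 13.6 with no overlap, a log2 change of 0.52 ± 0.12 (SE, limma adjusted p = 0.00406). Noxa1, the activator subunit, had a log2 change of 0.00 ± 0.24 (SE, limma adjusted p = 0.990). Within this complex Noxo1 and Rac1 were thus higher, Cyba was lower, and Nox1 and Noxa1 did not pass.

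Duox1, the other dual oxidase, had 0 to 2 reads in every mouse, and Nox3 was listed at 0 in all of them. Saa4, the constitutive SAA gene, had at most 5 reads in an AIMD mouse and 0 in each vehicle-treated mouse. Nox4 had 0 to 5 reads. Nos1 and Nos3, the neuronal and endothelial NO synthases, had 0 to 34 and 1 to 10 reads. Nos3 had 0.0180 to 0.116 FPKM with AIMD and 0.0895 to 0.329 with vehicle, and 5 of 7 AIMD mice lay below every vehicle-treated mouse. None of these relatives reached the filter, and their differences were not tested.

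**Figure D4:**
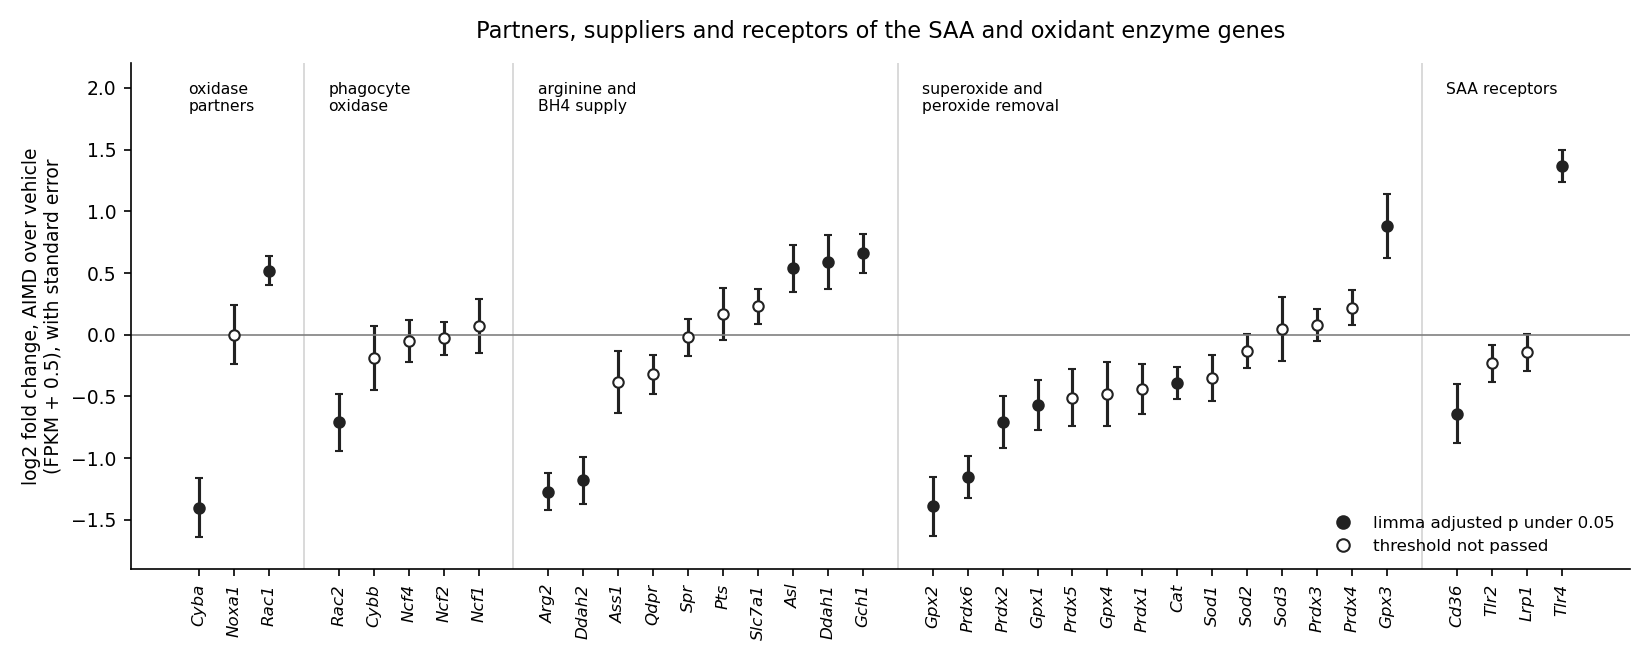
Points are log2 fold changes of FPKM + 0.5, AIMD over vehicle, with standard errors, for the tested genes of 5 lists, and filled points had a limma adjusted p under 0.05. Cyba, Arg2, Ddah2, Gpx2 and Prdx6 lie near or below -1.15, and Tlr4 at 1.37 is the highest point.

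Of the 5 genes of the phagocyte NADPH oxidase, which resembles the NOX1 complex, Rac2 was lower, at 3.76 ± 1.52 FPKM against 6.37 ± 2.34, with a log2 fold change of -0.71 (limma adjusted p = 0.0252). This was 1 of 5 lower, beside 16.6% of all tested genes. The other 4 had log2 fold changes between -0.19 for Cybb, the catalytic subunit, and 0.07 for Ncf1, an organizer related to Noxo1, and did not pass (limma adjusted p = 0.591 and 0.829). The signs of Ncf1 and of Noxa1 changed with the scaling. No haem peroxidase that uses hydrogen peroxide reached the filter among Lpo, Mpo and Epx. Lpo had 0 to 0.121 FPKM in AIMD mice and 0 to 2.31 in vehicle-treated mice, and its difference was not tested.

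Of 12 listed genes that supply or limit nitric oxide synthesis 10 were tested, and 3 were higher and 2 lower in AIMD mice, close to the 19.4% and 16.6% of all tested genes, with a median log2 fold change of 0.07. Arg2, the arginase that competes for arginine, had 17.2 ± 4.58 FPKM against 41.6 ± 6.86 with no overlap, a log2 change of -1.27 ± 0.15 (SE, limma adjusted p = 1.47e-05). Ddah2, which breaks down a methylated arginine that inhibits NO synthases, was also lower without overlap, at -1.18 (SE 0.19, limma adjusted p = 0.000234). The share of all tested genes that were lower without overlap was not computed. Gch1, the entry enzyme of tetrahydrobiopterin synthesis, was higher by 0.66 ± 0.16 on the log2 scale (SE, limma adjusted p = 0.00407), with 5 of 7 AIMD mice above every vehicle-treated mouse. Ddah1 at 0.59 (limma adjusted p = 0.0429) and Asl at 0.54 (limma adjusted p = 0.0387) were the other higher genes. Without AIMD replicate 4 and vehicle replicate 8, Asl no longer passed (limma adjusted p = 0.0649) and Qdpr was called lower, which gave 2 higher and 3 lower.

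All 14 listed enzymes that remove superoxide and peroxide were tested. Of these 5 were lower and 1 was higher, beside 16.6% lower and 19.4% higher of all tested genes, and the median log2 fold change was -0.42 against 0.01 over all genes. Gpx2, the glutathione peroxidase of gut epithelium, had 232 ± 79.4 FPKM after AIMD and 608 ± 216 after vehicle, with a log2 change of -1.39 ± 0.24 (SE, limma adjusted p = 0.000396). Prdx6, a peroxiredoxin, had 517 ± 117 FPKM against 1149.9 ± 253, a log2 change of -1.15 ± 0.17 (SE, limma adjusted p = 0.000114). Neither of these overlapped between the groups. The share of all tested genes that were lower without overlap was not computed, so how unusual this is cannot be told. Prdx2 was lower by limma at -0.71 (adjusted p = 0.0155), and Gpx3, the secreted glutathione peroxidase, was the 1 gene higher, at 0.88 (adjusted p = 0.0150). Without both mice that stood apart, 6 were lower and 1 was higher.

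Among 9 listed receptors of SAA proteins, 4 were tested. By limma 1 was higher and 1 lower, beside 19.4% higher and 16.6% lower of all tested genes. Tlr4, the endotoxin receptor that SAA proteins also engage, had 2.51 ± 0.247 FPKM with AIMD and 0.684 ± 0.278 with vehicle, with no overlap. The log2 change was 1.37 ± 0.13 (SE, limma adjusted p = 1.39e-06). Cd36, a scavenger receptor, was lower at -0.64 (limma adjusted p = 0.0455) but did not pass without both mice that stood apart (limma adjusted p = 0.0849). Tlr2 and Lrp1 did not pass, with log2 fold changes of -0.23 and -0.14 (limma adjusted p = 0.227 and 0.505). Fpr2, a formyl peptide receptor known to bind SAA, stayed under the filter at 0 to 0.529 FPKM.

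Of the cytokines known to raise these genes, Il22 had 0 to 2 reads, and Il17a and Il17f had 0 or 1 read in every mouse. Of 11 listed cytokines 3 were tested, and Il18 was lower in AIMD mice, at 93.6 ± 28.3 FPKM against 178 ± 54.5, a log2 fold change of -0.87 (limma adjusted p = 0.0204). This was 1 of 3 lower, beside 16.6% of all tested genes. Il1b and Tnf did not pass, with log2 fold changes of 0.17 and 0.12 (limma adjusted p = 0.475 and 0.710). AIMD replicate 4 had the highest Tnf of all mice, at 2.27 FPKM.

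Of 25 listed receptors, signal transducers and transcription factors of these cytokines, 24 were tested. By limma 8 were higher and 3 lower, beside 19.4% higher and 16.6% lower of all tested genes, and the median log2 fold change was 0.02. Il17rc, a subunit of the IL-17 receptor, had 22.5 ± 6.38 FPKM against 7.11 ± 3.38, a log2 change of 1.64 ± 0.23 (SE, limma adjusted p = 6.77e-05). Il22ra1, the IL-22 receptor chain of epithelium, had 2.61 ± 1.49 FPKM against 0.462 ± 0.305, a log2 change of 1.61 ± 0.25 (SE, limma adjusted p = 0.000151). In both genes 6 of 7 AIMD mice lay above every vehicle-treated mouse. Nfkb1 at 0.94 (limma adjusted p = 0.000140) and Jak1 at 0.64 (limma adjusted p = 0.00115) were higher with no overlap. Cebpb, a C/EBP transcription factor named after its values were seen, was lower, at 10.5 ± 4.67 FPKM against 29.6 ± 14.7, a log2 change of -1.42 ± 0.30 (SE, limma adjusted p = 0.00155). Without both mice that stood apart, 8 were higher and 5 lower.

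Of 13 listed epithelial genes that IL-22 and IL-17 are known to raise, 9 were tested. Of these, beside the 19.4% higher and 16.6% lower of all tested genes, 1 was higher and 2 were lower (1 and 3 without both mice that stood apart), and the median log2 fold change was -0.23. Ang4, an antimicrobial ribonuclease, had 13.8 ± 6.49 FPKM with AIMD and 2.34 ± 0.940 with vehicle, with no overlap and a log2 change of 2.28 ± 0.26 (SE, limma adjusted p = 8.98e-06). Fut2, a fucosyltransferase, and Pigr, the immunoglobulin A transporter, were lower, at -0.63 and -0.48 (limma adjusted p = 0.0200 and 0.0452). Reg3b, an antimicrobial lectin, ranged from 1.08 to 737 FPKM in AIMD mice and from 4.27 to 1024 in vehicle-treated mice. At -2.53 ± 1.36 (SE) on the log2 scale it did not pass (limma adjusted p = 0.156). The 737 FPKM were those of AIMD replicate 4, and the other 6 AIMD mice had at most 122.

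Other acute-phase proteins were measured for comparison with SAA. Of 15 listed only Serpina3n and C3 reached the filter, and neither passed, with log2 fold changes of 0.59 and -0.35 (limma adjusted p = 0.0768 and 0.344). The fibrinogen genes Fga, Fgb and Fgg, products of hepatocytes, were listed at 0 in all mice, as was Apcs.

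AIMD replicate 4 and vehicle replicate 8 shared high Duox2 and Duoxa2 but differed in the other lists. In AIMD replicate 4 Ly6g, a neutrophil surface gene, had 24.7 FPKM against at most 2.39 in every other mouse, S100a8 had 2.42 against at most 0.600, and S100a9 had 2.53 against at most 0.875. Of the other neutrophil markers, Csf3r, Cxcr2 and Camp were highest in a vehicle-treated mouse (0.209, 0.134 and 0.301 FPKM). Ltf was highest in AIMD replicate 4 itself (1.18 FPKM), and Retnlg was highest in an AIMD mouse (0.395 FPKM). The neutrophil markers Mmp8 and Ngp were at 0 in all mice. Ly6g was the 1 listed marker that was tested, and it was higher after AIMD by 1.46 on the log2 scale (limma adjusted p = 0.0324) and by 0.86 without both mice that stood apart (limma adjusted p = 0.0267). The 13 IL-22 and IL-17 targets summed to 2361 FPKM in that mouse and to 878 to 1246 in the other AIMD mice, and smooth muscle markers to 203 against 523 to 773. In vehicle replicate 8 the neutrophil markers summed to 0.607 FPKM, within the 0.551 to 1.49 of its group, and the IL-22 and IL-17 targets to 1040.5, the lowest of its group. Of these targets, Dmbt1, Pigr and Retnlb were the lowest of the group in that mouse (247, 303 and 13.2 FPKM). Reg3b and Reg3g lay above the vehicle medians (384 against 242 and 63.6 against 41.1 FPKM), so the sum does not describe every target. The fibroblast markers (113 FPKM) and macrophage markers (107 FPKM) of vehicle replicate 8 were the highest of the vehicle-treated mice. The part of these cell types in the values of the 2 mice was not tested.

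**Figure D5:**
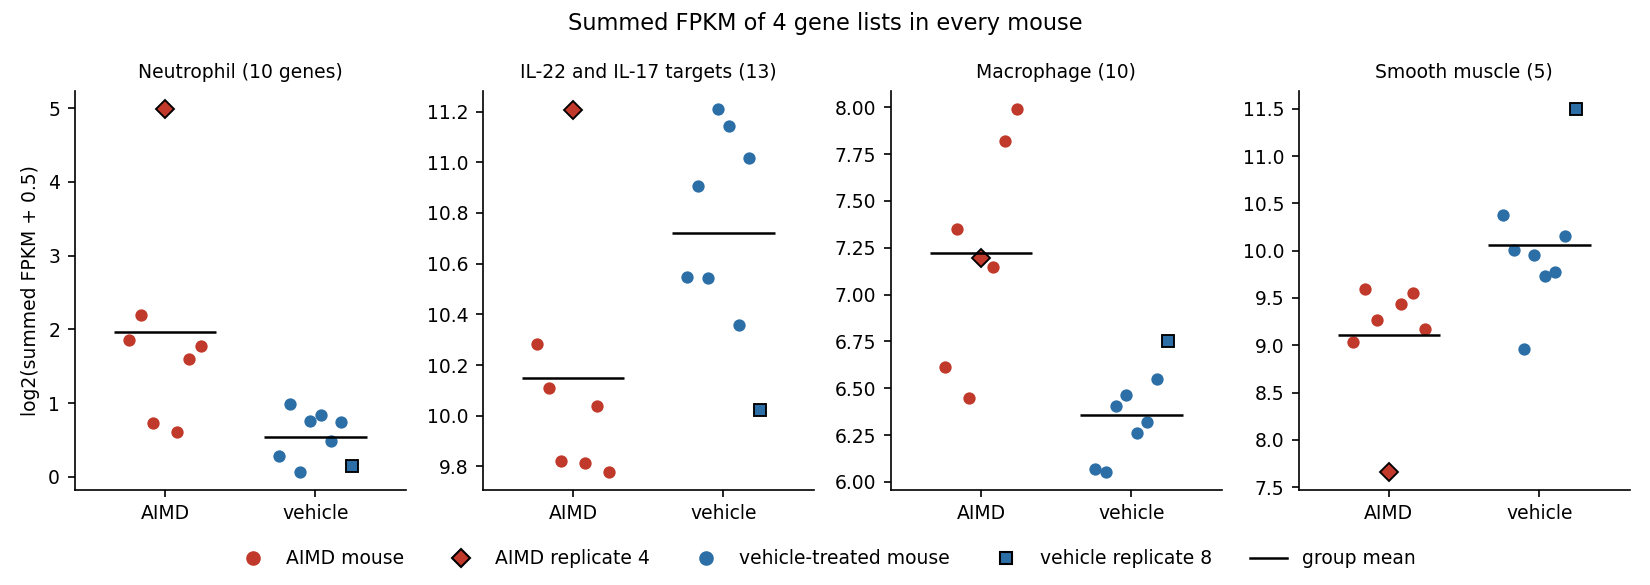
Each point is the summed FPKM of a list in 1 mouse, drawn as log2(sum + 0.5), and the line is the group mean. AIMD replicate 4 (diamond) is highest of its group for neutrophil markers and IL-22 and IL-17 targets and lowest for smooth muscle markers, and vehicle replicate 8 (square) is highest of all mice for smooth muscle markers.

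Epithelial and stromal markers were read beside the 36.0% of all tested genes that passed. Of 10 epithelium markers Krt8 and Vil1 were higher and Krt18 was lower (4 higher and 2 lower without both mice that stood apart), and the list summed to 6212 to 9766 FPKM per AIMD mouse and 5619 to 7831 per vehicle-treated mouse. Of 6 colonocyte markers Ceacam1 was higher and Aqp8 lower (2 higher and 1 lower without both). Smooth muscle markers summed to 203 to 773 FPKM per AIMD mouse and 496 to 2898 per vehicle-treated mouse, with Tagln of 5 markers lower (log2 fold change -1.17, limma adjusted p = 0.00454). Lum of 5 fibroblast markers and Adipoq of 5 adipocyte markers were lower with all mice (limma adjusted p = 0.0381 and 0.0215). Neither passed without both mice that stood apart (limma adjusted p = 0.106 and 0.0616). The part of tissue makeup in the SAA and oxidase values was not tested.

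The study also had a time of sacrifice, which the labels do not give. In 14 circadian clock genes the mice fell into 2 clusters on an axis that held 92.2% of their variance, AIMD replicates 1 to 3 with vehicle replicates 1 to 4 (Arntl high) and AIMD replicates 4 to 7 with vehicle replicates 5 to 8 (Arntl low). Saa3 was higher in AIMD mice within each, by 2.15 and 1.38 on the log2 scale without overlap (exact permutation test, p = 0.0286 in each, the smallest p these numbers of mice allow). For Saa1 the differences were 1.57 and 0.84 (exact permutation test, p = 0.0571 in each), and for Noxo1 0.48 and 0.68 (exact permutation test, p = 0.143 and 0.0571). Saa1 did not overlap within the Arntl high cluster, at 3138 to 3610.3 FPKM with AIMD and 905 to 1935 with vehicle, and overlapped in the other. With the axis as a covariate over all 15 mice, Saa3, Saa1 and Noxo1 passed (limma adjusted p = 1.52e-05, 0.00264 and 0.0102). In the Arntl high cluster, which holds neither mouse that stood apart, Duox2 differed by 0.38 and Duoxa2 by 0.22 (exact permutation test, p = 0.257 and 0.457). The effects did not pass a test of their difference between the clusters for any of the 7 genes (limma interaction term, lowest adjusted p = 0.993), and for Saa3 the unadjusted p was 0.0685.

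For each tested gene the 3 genes most like it over the 15 mice, by Pearson's r of log2 values centred within the groups, are given as a description. Each of Duox2 and Duoxa2 was closest to the other (0.89), followed by Dapp1 (0.86) and Tat (0.84) for Duox2 and by Dhrs9 (0.82) and St6galnac6 (0.81) for Duoxa2. Closest to Saa1 were Ceacam10 and Gm11430 (0.81 each) and Plet1 (0.80), and closest to Saa3 were Gm13203 (0.89), Rassf7 (0.88) and Tor1a (0.84). Saa2 was most like Gna14 (0.81), Iqsec2 (0.80) and Gm26982 (0.79). Nox1 was most like Mrpl50 (0.95), Mtfmt (0.94) and Fam136a (0.93), and Noxo1 most like Cyb561d2, RP23-45G4.2 and Cbr1 (0.92 each). All of these share the libraries and their depth, and AIMD replicate 4 and vehicle replicate 8 are among the points.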

How the data were processed

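Stranded poly-A libraries were read as 50-base single reads. STAR (GRCm38) and featureCounts (GENCODE genes) gave the authors' counts, from which the deposited FPKM of each single mouse derive; tool versions, the strand setting and the step to FPKM are not given in the sources used here. Groups come from the sample titles, and replicates are different mice.

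Of 45808 rows, 4 with a repeated symbol were left out. Reads were recovered as whole multiples of 1 read (tolerance 0.05 reads), with GENCODE M21 exon length for 68.7% of 24279 genes and another length for the rest, and depth limits the precision of low genes. After median-of-ratios scaling (1.01 in every mouse), log2(FPKM + 0.5) was tested with limma 3.58.1 (trend, R 4.3.3), two-sided, Benjamini-Hochberg adjusted over 11971 genes that reached 0.5 FPKM in 7 or more mice, with a threshold of 0.05. The pseudocount shrinks fold changes of weakly expressed genes. Single values used exact permutation tests over 6435 divisions (smallest p 0.000155). The steps were tested on simulated data, but read recovery only with the annotated length. Saa1, Saa2, Saa3, Duox2 and Nos2 used another length, so their read counts rest on a step that was not tested.

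Deviations of same-numbered mice correlated between -0.35 and 0.43, and the numbers name different animals, so no pairing was used. Replicates 1 to 3 of both groups were in the Arntl high cluster and replicates 5 to 7 of both in the Arntl low cluster. A replicate block thus partly follows that split. The genes and lists were chosen with earlier results of these data known. Named were the 8 genes, members of the lists of relatives, phagocyte oxidase, nitric oxide supply and SAA receptors, up to 4 genes with the smallest adjusted p of every other list, and, after their values were seen, untested or cell type genes that bear on a result. Promoters are from RefSeq (GRCm38.p6), which held 7 of the 8 genes, all but Nos2. Alternatives were other pseudocounts, scalings and filters, a rank-sum test, limma voom and a replicate block. Clock-gene clusters, the clock-gene axis as a covariate and each mouse left out were others.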

Additional observations from a re-analysis of the deposited data

Results flagged for a closer look

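In 16 sets of values, 8 genes in each of 2 groups, the gap between the most extreme mouse and its nearest neighbour was divided by the range of the group on the log2 scale, and 5 exceeded the 95% limit of Dixon's test. Chance passes about 1 in 20 such sets. Of the 5, 3 were AIMD replicate 4, which was high in Saa2 (0.635 of the range, at 10.2 FPKM), in Duox2 (0.689, at 28.4 FPKM) and in Nos2 (0.783, at 2.86 FPKM). The other 2 were vehicle replicate 8, high in Duox2 (0.538 of the range, at 15.8 FPKM) and low in Noxo1 (0.538, at 3.64 FPKM).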

How the results depend on the processing

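Saa3 and Saa1 kept their direction and their call in all 26 alternatives fitted over all genes, and the 3 higher and 0 lower calls were 2 to 3 and 0 with 1 mouse left out. With 1 mouse left out the log2 fold changes ranged from 0.99 to 1.31 for Saa1, 0.57 to 1.10 for Saa2, 1.61 to 1.84 for Saa3, 0.14 to 0.83 for Duox2, -0.35 to 0.42 for Duoxa2, 0.20 to 0.53 for Nox1 and 0.43 to 0.64 for Noxo1, and from 0.04 to 0.49 for Nos2. Partner differences ranged from 0.29 to 0.60 for Duox2 minus Duoxa2, -0.67 to -0.47 for Saa1 minus Saa3, 0.10 to 0.42 for Saa1 minus Saa2 and -0.24 to -0.01 for Nox1 minus Noxo1. The sign of Duoxa2 also turned after quantile normalization (-0.04), with limma voom (-0.05), without both mice that stood apart (-0.15, chosen after the data were seen) and in the Arntl low cluster (-0.07), and that of Saa1 minus Saa2 with a pseudocount of 0.1 (-0.18). Within the clock clusters Saa1 (1.57 and 0.84) and Noxo1 (0.48 and 0.68) no longer passed, with 7 or 8 mice in each. With the clock-gene axis as a covariate over all mice, Saa1 and Noxo1 passed (1.17 and 0.56, limma adjusted p = 0.00264 and 0.0102). Without both mice that stood apart Duox2 minus Duoxa2 (0.59) and Saa1 minus Saa3 (-0.62) passed. A replicate block made Duox2 pass (0.83, limma adjusted p = 0.0234), with vehicle replicate 8 carrying no information, and moved the genes called from 4315 to 4647; deviations of same-numbered mice correlated between -0.35 and 0.43, 1 of 7 AIMD mice was closest to its own number, and the numbers name different animals. The cause of these changes was not tested. limma voom on recovered reads called 4435 genes.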
